A study of Mus musculus with 10 samples.

Results

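The genes described here are 10 immediate early genes, chosen by symbol: the AP-1 genes Fos, Fosb, Jun and Junb, the related bZIP gene Atf3, the zinc finger genes Egr1 and Egr2, the mRNA decay gene Zfp36, and Ier2 and Ier3. Every probe set whose single gene symbol is among them was taken, which gave 12 of the 22626 probe sets that are no array controls. These 12 stood for 10 of 12393 genes, Jun and Egr2 with 2 probe sets each, and all 12 passed the filter on low values (a log2 value over 4 on at least 2 of the 10 arrays). RNA of mouse cells was hybridised to 10 Affymetrix arrays, 2 for each of 5 groups, and every sample is labelled iPSC (induced pluripotent stem cells). At day 32 of Yamanaka factor expression, secondary MEFs (embryonic fibroblasts that carry inducible copies of Pou5f1, Sox2, Klf4 and Myc) gave a Sox2-positive fraction, a Sox2-negative fraction and a sample for which no fraction is named. Established iPSC had been grown in 2i with serum, or co-cultured with MEFs, and whether the MEFs were taken out before RNA extraction is not stated. 2i is a pair of inhibitors, of the kinase that activates ERK and of GSK3. By its title the study used RNA FACS, in which cells are separated by a transcript stained inside them, and the labels give no further detail of the sort. Nothing says that the 2 replicates of a group came from separate cultures, so the spread behind each p-value may be technical.

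Immediate early genes are transcribed within minutes of a signal, without new protein synthesis. Growth factors act on many of them through ERK, which phosphorylates ELK factors bound with serum response factor at CArG boxes in their promoters, while cAMP and stress kinases act through the CRE element. Their products are mostly transcription factors, with Zfp36 instead destabilising mRNAs of other early genes. Enzymatic dissociation and sorting are known to induce Fos, Jun, Egr1 and Atf3 in many tissues. The levels below are therefore set against 3 features of the samples: sorting, ERK inhibition and cell state.

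The arrays differ in technical measures that go with the groups. The probe set at the 3' end of 18S ribosomal RNA read 11.35 to 13.22 on the 6 arrays of both fractions and of iPSC with MEFs, and 5.25 to 6.55 on the 4 arrays of the day 32 sample and of iPSC in 2i. The medians over all probe sets were 4.26 to 4.33 and 5.28 to 5.36 on the same arrays. In comparisons across this divide, the 18S level, the Actb gap and the group cannot be told apart. Each difference is set beside the median difference of all 15252 tested probe sets. The labels name more than 1 amplification kit without saying which sample had which, and whether all 10 arrays were normalized together is not stated, so the part of either in this divide was not tested. Of 14 pluripotency markers, 14 were over 4 on both arrays of every group except the Sox2-negative fraction, where 5 were, so the iPSC label is not borne out by these markers there. Of 15 fibroblast markers, 2 were over 4 on both arrays in the Sox2-positive fraction, 5 in the Sox2-negative fraction, 10 in the day 32 sample, 6 in iPSC in 2i and 4 in iPSC with MEFs. In such bulk samples, fewer cells of a type and less RNA per cell cannot be told apart.

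Fos, the founding AP-1 subunit, was lowest in iPSC in 2i. It read 8.86 and 8.59 in the Sox2-positive fraction, 8.64 and 7.30 in the Sox2-negative fraction, 10.03 and 9.99 in the day 32 sample, 6.47 and 5.39 in iPSC in 2i and 11.07 and 9.74 in iPSC with MEFs (log2 units, replicates a and b, as in all values below). The day 32 sample and iPSC with MEFs overlapped at the top, the fractions overlapped with each other below them, and iPSC in 2i lay apart from every other group. Fosb, a close relative of Fos, read 4.73 and 4.71 in the Sox2-positive fraction, 6.05 and 5.76 in the Sox2-negative fraction, 5.55 and 4.16 in the day 32 sample, 2.34 and 2.42 in iPSC in 2i and 7.26 and 6.32 in iPSC with MEFs. Its highest arrays were those of iPSC with MEFs, and iPSC in 2i lay under the filter value of 4 on both arrays.

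Jun, the partner of Fos in AP-1, was highest in the day 32 sample by both probe sets. Probe set 1448694_at read 3.73 and 4.61 in the Sox2-positive fraction, 5.64 and 6.59 in the Sox2-negative fraction, 9.23 and 7.38 in the day 32 sample, 4.68 and 4.24 in iPSC in 2i and 5.60 and 5.09 in iPSC with MEFs. The other, 1417409_at, gave 6.06 and 5.19, 6.87 and 7.20, 8.37 and 7.24, 5.63 and 4.51, and 6.36 and 6.27 for the same groups. Both put the Sox2-negative fraction next and iPSC with MEFs after it, and both left the Sox2-positive fraction and iPSC in 2i overlapping at the bottom. Junb, an AP-1 subunit that competes with Jun, stayed between 3.41 and 5.75 on all arrays, with the day 32 sample highest (5.75 and 5.14) and the Sox2-positive fraction lowest (3.41 and 3.74). Atf3, a repressor induced by many stresses, read 4.60 and 3.14 in the Sox2-positive fraction, 5.35 and 5.23 in the Sox2-negative fraction, 8.21 and 6.54 in the day 32 sample, 6.09 and 4.48 in iPSC in 2i and 5.59 and 5.73 in iPSC with MEFs. The day 32 arrays alone stood apart from all others.

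Egr1 and Egr2, zinc finger factors that answer to growth factors, differed from each other in where they were high. Egr1 read 10.78 and 10.28 in the Sox2-positive fraction, 10.98 and 10.91 in the Sox2-negative fraction, 10.70 and 10.82 in the day 32 sample, 8.17 and 5.41 in iPSC in 2i and 9.87 and 9.13 in iPSC with MEFs. All 6 arrays from day 32 lay above the 4 arrays of established iPSC, of which those in 2i were lowest. Egr2 by probe set 1427682_a_at read 6.09 and 4.52 in the Sox2-positive fraction, 6.87 and 6.29 in the Sox2-negative fraction, 10.19 and 9.06 in the day 32 sample, 2.65 and 2.77 in iPSC in 2i and 5.11 and 3.84 in iPSC with MEFs. By 1427683_at it read 6.36 and 5.55, 8.67 and 6.58, 9.92 and 7.82, 2.62 and 2.87, and 6.72 and 5.36 for the same groups. The range of the group means was 6.92 and 6.13 for these probe sets, the widest of the 12, and both placed the day 32 sample first and iPSC in 2i last. They differed in the middle, where the Sox2-positive fraction and iPSC with MEFs changed places and overlapped by either.

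Zfp36, which binds AU-rich mRNAs and speeds their decay, was the one member with both fractions above the day 32 sample in mean. It read 8.65 and 8.50 in the Sox2-positive fraction, 10.09 and 9.33 in the Sox2-negative fraction, 8.67 and 7.53 in the day 32 sample, 6.24 and 5.13 in iPSC in 2i and 9.74 and 9.72 in iPSC with MEFs. Ier2, a nuclear early response protein, read 4.75 and 4.54 in the Sox2-positive fraction, 5.12 and 4.69 in the Sox2-negative fraction, 6.59 and 6.22 in the day 32 sample, 6.16 and 6.53 in iPSC in 2i and 5.65 and 5.63 in iPSC with MEFs, so that its order followed the 18S divide. Ier3, an early response gene linked to cell survival, read 4.90 and 5.34, 6.34 and 5.78, 6.46 and 6.68, 5.24 and 6.50, and 4.49 and 4.61 for the same groups, with iPSC with MEFs lowest and apart from its neighbour.

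**Figure D1:**
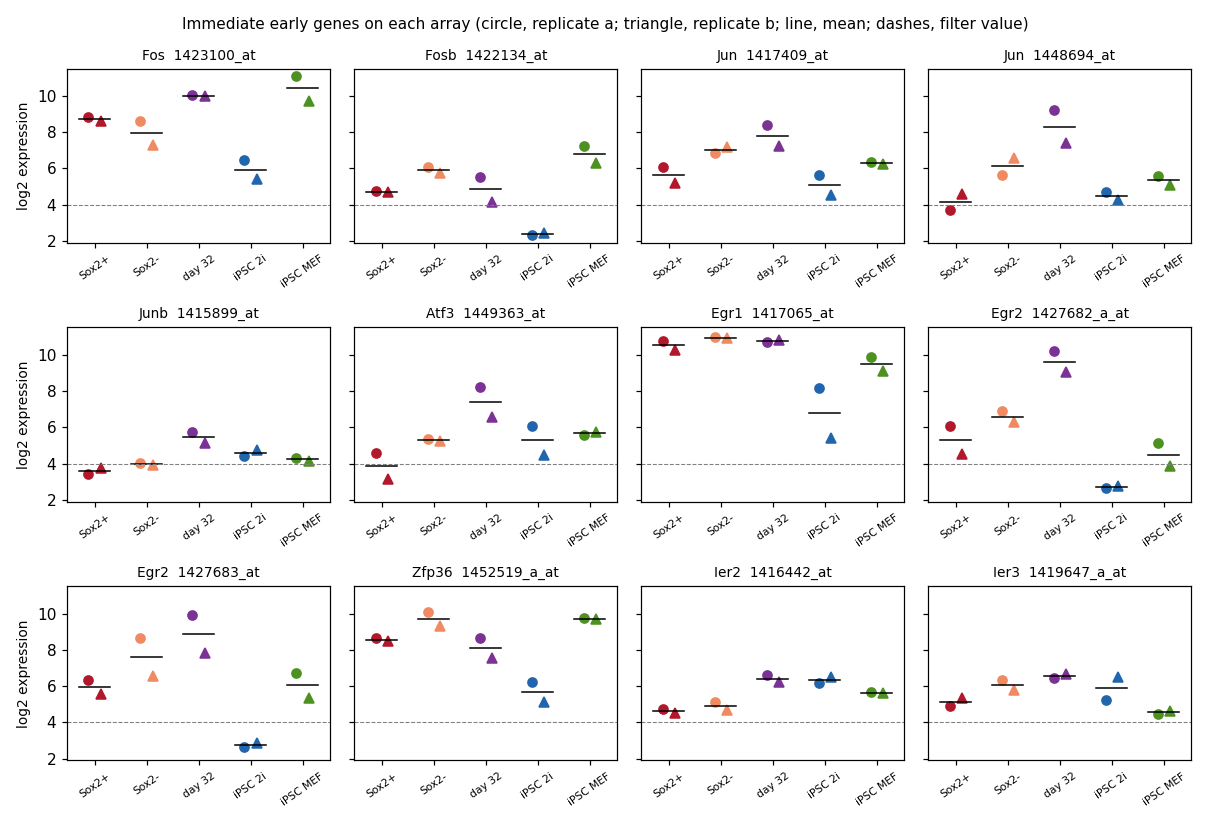
Log2 expression (y axis) of the 12 probe sets on each array, by group along the x axis; circles are replicate a, triangles replicate b, black lines the mean of 2 arrays, and the dashed line the filter value of 4. Fosb and both Egr2 probe sets lay under 4 in iPSC in 2i, and the day 32 sample was highest for Jun, Junb, Atf3, Egr2, Ier2 and Ier3.

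Promoter sequence was found for 8 of the 10 genes in a RefSeq table of build GRCm38.p6 (250 bases before to 50 after each start site). Egr1 and Ier2 had none, so their promoters were not searched. Both strands were searched for the CArG box, the CRE core TGACGT, the AP-1 site TGAGTCA and the EGR site GCGNGGGCG. Of 32851 windows for all genes, 1.63% held a CArG box, 7.51% a CRE core, 5.2% an AP-1 site and 5.55% an EGR site. The last 120 bases before the start are shown for the 4 genes with a CArG box or a CRE core, the elements through which ERK and stress signals are known to act, with every match of these motifs in capitals. The windows run 5′ to 3′ on the gene's strand and lie at chr12:85473770-85473889 (plus strand) for Fos, chr10:67537749-67537868 (plus) for Egr2, chr7:28379229-28379348 (minus) for Zfp36 and chr1:191183334-191183453 (minus) for Atf3.
Fos: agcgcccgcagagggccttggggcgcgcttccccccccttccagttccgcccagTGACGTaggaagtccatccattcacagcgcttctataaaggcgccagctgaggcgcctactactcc
Egr2: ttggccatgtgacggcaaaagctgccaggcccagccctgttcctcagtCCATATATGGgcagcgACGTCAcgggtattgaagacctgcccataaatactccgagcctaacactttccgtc
Zfp36: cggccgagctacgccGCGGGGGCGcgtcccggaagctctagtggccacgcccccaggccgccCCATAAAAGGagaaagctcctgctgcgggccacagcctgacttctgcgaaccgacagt
Atf3: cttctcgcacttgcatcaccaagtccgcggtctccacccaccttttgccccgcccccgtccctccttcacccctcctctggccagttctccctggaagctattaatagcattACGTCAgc

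In Fos the CRE core began 66 bases before the start. Egr2 has 5 windows in the table, of which 4 held a CArG box. Some of these overlap and share the box CCATATATGG, so the 4 are not separate boxes. In the window shown that box began 72 bases before the start, with a CRE core on the other strand at 56 bases. Zfp36 had the CArG box CCATAAAAGG at 58 bases and an EGR site at 105 bases, and Atf3 a CRE core at 8 bases, on the other strand. Fosb had an EGR site at 50 bases, and in Jun, Junb and Ier3 the window held none of the 4 motifs as spelled. A match of letters does not show that a factor binds there.

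The day 32 sample had higher immediate early genes than iPSC in 2i, a comparison that lies within the arrays of low 18S signal. These groups still differed in the gap between 3' and 5' probe sets, whose part was not tested. For Actb it was 3.32 to 3.88 in the day 32 sample and 2.7 to 2.94 in iPSC in 2i. For Gapdh it was 1.47 to 2.25 and 0.84 to 1.13, and for Tfrc 2.28 to 2.82 and 3.67 to 3.78. Fos averaged 10.01 ± 0.03 in the day 32 sample and 5.93 ± 0.76 in iPSC in 2i (SD, n = 2 each), which was 16.9-fold higher (4.08 on the log2 scale with an SE of 0.56, limma adjusted p = 0.00549). Egr2 by 1427682_a_at averaged 9.62 ± 0.80 in the day 32 sample and 2.71 ± 0.08 in iPSC in 2i, at least 49.4-fold higher (adjusted p = 0.00123), and by 1427683_at at least 29.2-fold (adjusted p = 0.00485). Where the lower group was under 4 on every array, as here, only the fold above 4 is given. Egr1 averaged 10.76 ± 0.08 in the day 32 sample and 6.79 ± 1.95 in iPSC in 2i, a difference of 3.97 or 15.7-fold (adjusted p = 0.0163). Jun was 14.4-fold and 6.66-fold higher by its probe sets (adjusted p = 0.00906 and 0.0155), Zfp36 5.33-fold (0.0211) and Fosb at least 1.81-fold (0.0178).

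Of the 12 probe sets, 8 were called higher in the day 32 sample than in iPSC in 2i and 0 lower by limma, where 3.93% of all tested probe sets were called higher and 2.42% lower. In 10 of the 12 both day 32 arrays lay above both arrays in 2i (23.6% of all probe sets). The median difference was 2.60 over the 12 and -0.14 over all. Atf3 (difference 2.09, 95% interval 0.56 to 3.62, adjusted p = 0.103) and Junb (0.85, 0.21 to 1.49, adjusted p = 0.113) were not called, nor were Ier3 (0.70, -0.22 to 1.62) and Ier2 (0.06, -0.56 to 0.68). Only the Egr2 probe sets kept their call on leaving out any of the 4 arrays. Without day 32 replicate a these were the 2 calls left, with adjusted p of 0.056 (Fos) to 0.184 (Zfp36) for the others. Without iPSC in 2i replicate b, 4 were left, Fosb (0.0903), Jun (0.104 and 0.0623) and Zfp36 (0.144) were lost and the Egr1 difference became 2.59. Fosb was also lost without iPSC in 2i replicate a (0.0821) and Egr1 without day 32 replicate b (0.0509), and with the compared arrays alone Fos and both Egr2 probe sets, 3 in all, kept theirs. Fibroblast markers moved with this comparison, with a summed level of 10.20 to 10.22 in the day 32 sample and 8.94 to 9.29 in iPSC in 2i (log2 of the sum over 15 markers), with Col1a2, Thy1, Postn, Lum and Dcn under 4 on both arrays of either group. Keratinocyte markers summed to 9.15 to 11.13 in the day 32 sample (3 of 5 over 4 on both arrays) and 7.15 to 7.47 in iPSC in 2i (1 of 5), with Krt5 and Trp63 under 4 in either group. Endothelial markers summed to 7.66 to 8.23 in the day 32 sample and 7.17 to 7.49 in iPSC in 2i, with Cdh5, Kdr, Emcn and Esam under 4 in either group. The part of these markers in the result was not tested, and they do not show that cells of these types were present.

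iPSC in 2i also had lower Fos, Fosb, Egr1, Egr2 and Zfp36 than iPSC with MEFs. Here the medium, the feeder cells and the 18S level all differ and cannot be told apart, and the arrays of iPSC in 2i are the same as above. Fos averaged 5.93 ± 0.76 in iPSC in 2i and 10.41 ± 0.94 in iPSC with MEFs (SD, n = 2 each), which was 22.2-fold lower (-4.47 on the log2 scale, SE 0.56, limma adjusted p = 2.01e-04). Zfp36 averaged 5.69 ± 0.78 in iPSC in 2i and 9.73 ± 0.01 in iPSC with MEFs, 16.5-fold lower (1.46e-04), and Fosb was at least 6.92-fold lower (8.43e-05). Egr1 was 6.54-fold lower (adjusted p = 0.0092), and Egr2 at least 4.11-fold by 1427683_at (0.00686) and at least 1.39-fold by 1427682_a_at (0.0286). Jun was called lower by 1417409_at (2.37-fold, 0.048) and not by 1448694_at (difference -0.88, 95% interval -2.22 to 0.45), which was called with median centring (-1.99, 0.0216).

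These 7 of 12 probe sets called lower stand beside 11.5% of all probe sets, since the median difference of all was 0.91 in the other direction and 49.8% were called higher. Ier2 (0.71, adjusted p = 0.048) and Ier3 (1.32, adjusted p = 0.0189) were called higher in 2i, less than the all-probe median for Ier2, which turned to -0.42 with quantile normalization and -0.40 with median centring, while Ier3 fell to 0.23 and 0.21 and lost its call. Atf3 (-0.38, 95% interval -1.90 to 1.15) and Junb (0.36, -0.28 to 1.0) were not called, and Junb turned to -0.55 and -0.75 with the same scalings. Fos, Fosb and Zfp36 were called under all 12 alternatives tried, and without iPSC with MEFs replicate a they were the 3 calls left, where Egr1 had an adjusted p of 0.0684 and Egr2 of 0.0631 and 0.207. The Egr1 difference of -2.71 became -4.09 without iPSC in 2i replicate a and -1.33 without replicate b. The calls of Egr2 by 1427682_a_at were lost without either array in 2i (0.102 and 0.0822), that of Jun without iPSC in 2i replicate b (0.31) or either array with MEFs (0.155 and 0.131), that of Ier3 without the same 3 arrays (0.155, 0.0861 and 0.0666) and that of Ier2 without any of the 4 (0.0645 to 0.241). Fibroblast markers summed to 8.94 to 9.29 in iPSC in 2i and 9.20 to 9.39 in iPSC with MEFs, with Pdgfra, Postn, Lum, Dcn, Prrx1 and S100a4 under 4 on both arrays of either group. Keratinocyte markers summed to 7.15 to 7.47 in iPSC in 2i and 4.94 to 5.25 in iPSC with MEFs, with Krt5, Krt14, Trp63 and Krt6b under 4 on both arrays of either group. Endothelial markers summed to 7.17 to 7.49 in iPSC in 2i and 5.02 to 5.40 in iPSC with MEFs, with Cdh5, Kdr, Emcn and Esam under 4 on both arrays of either. The part of these markers in the result was not tested.

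**Figure D2:**
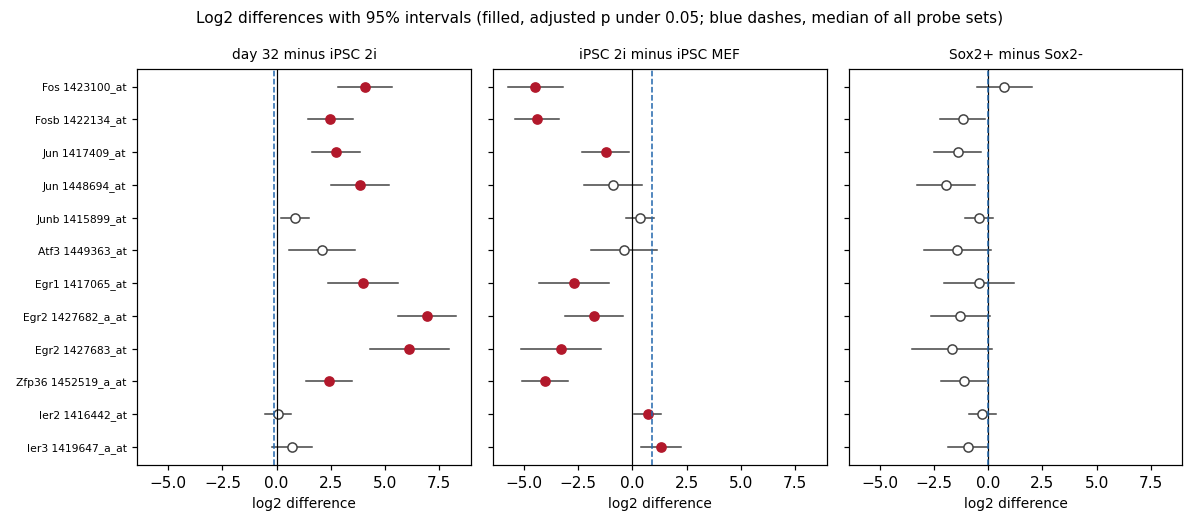
Log2 differences (x axis) of the 12 probe sets (rows) in 3 comparisons, with 95% intervals from limma; filled points have an adjusted p under 0.05, and the blue dashed line is the median of all 15252 probe sets. Fos, Fosb, Egr1, Egr2 and Zfp36 were called in the left and middle panels, higher in the day 32 sample than in iPSC in 2i and lower in iPSC in 2i than in iPSC with MEFs, and 0 of 12 between the fractions.

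Fos, Jun, Egr1 and Atf3, which sorting is known to induce, were called lower or not called in both fractions against the day 32 sample. In the Sox2-positive fraction Egr2 by 1427682_a_at averaged 5.30 ± 1.11, against 9.62 ± 0.80 in the day 32 sample (SD, n = 2 each), a difference of -4.32 (SE 0.60; limma adjusted p = 2.21e-04). Jun by 1448694_at differed by -4.14 (2.60e-04) and Atf3 by -3.50 (0.00138). Fos (-1.29, 95% interval -2.54 to -0.03, adjusted p = 0.0624) and Egr1 (-0.23, -1.84 to 1.38) were not called, and with median centring they turned to 0.06 and 1.12. All probe sets had a median difference of -1.23 in this comparison across the 18S divide, and 60.3% were called lower, so the 8 of 12 called lower were near the background, with 0 called higher (10.7% of all).

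With each array centred on its median, or with quantile normalization, Egr2 by 1427682_a_at (-2.97 and -3.23), Jun by 1448694_at (-2.79 and -3.07) and Atf3 (-2.16 and -2.43) kept their calls in the Sox2-positive fraction, and Zfp36 (0.47, adjusted p = 0.378) was called higher (1.82 and 1.85). Junb, at least 2.72-fold lower, kept its call with quantile normalization at a smaller difference (-0.95, against -1.87 as deposited, adjusted p = 0.0223) but not with centring (-0.52, 0.158), and Jun by 1417409_at (-2.18), Egr2 by 1427683_at (-2.91), Ier2 (-1.76) and Ier3 (-1.45) lost theirs with both. Egr2 by 1427683_at also lost it without Sox2-positive replicate b (0.0576) or day 32 replicate a (0.0862, difference -1.87), and Ier3 without Sox2-positive replicate a (0.0592) or day 32 replicate b (0.0556).

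In the Sox2-negative fraction 6 of 12 probe sets were called lower and 1, Zfp36, higher than in the day 32 sample. Zfp36 averaged 9.71 ± 0.54 in the Sox2-negative fraction and 8.10 ± 0.81 in the day 32 sample (SD, n = 2 each), 3.05-fold higher (limma adjusted p = 0.0117). Egr2 by 1427682_a_at differed by -3.04 (0.00153), Jun by 1448694_at by -2.19 (0.00831), Atf3 by -2.08 (0.0199), Fos by -2.04 (0.00869), Ier2 by -1.50 (9.95e-04) and Junb by -1.47 (0.00147). The median of all probe sets was -1.25 with 61.1% called lower and 10.6% higher, near the members' share of lower calls. Egr1 (0.19, limma adjusted p = 0.823) and Jun by 1417409_at (-0.77, 0.175) were not called. For Egr1 every Sox2-negative array lay above every day 32 array. Relative to the median of all probe sets, Egr1 (1.43) and Jun by 1417409_at (0.48) lay higher. Fos (-0.79), Jun by 1448694_at (-0.95) and Atf3 (-0.84) lay lower. Only Egr2 by 1427682_a_at stayed called lower with centring (-1.72) and quantile normalization (-1.84), while Zfp36 stayed called higher (2.93 and 2.90) and Fosb (1.05, adjusted p = 0.0616) was called higher (2.37 and 2.20), as it was without day 32 replicate a (1.74, 0.0071). Without Sox2-negative replicate a or day 32 replicate b, Zfp36 lost its call (0.077 in the first case, 0.102 at a difference of 1.04 in the other). Fos lost its call without Sox2-negative replicate b (0.0672, difference -1.37), Jun by 1448694_at without Sox2-negative replicate a (0.0585) or day 32 replicate a (0.0658, difference -1.27), and Atf3 without either Sox2-negative array (0.0568 and 0.0688) or day 32 replicate a (0.162, difference -1.25). Both fractions were set against the same day 32 arrays. Fibroblast markers summed to 8.12 to 8.78 in the Sox2-positive and 8.99 to 9.65 in the Sox2-negative fraction, against 10.20 to 10.22 in the day 32 sample. Keratinocyte markers summed to 5.25 in the Sox2-positive and 8.48 to 11.15 in the Sox2-negative fraction, against 9.15 to 11.13 in the day 32 sample. In the Sox2-negative fraction only Krt6b was over 4 on both arrays (1 of 5), against 0 in the Sox2-positive fraction and 3 in the day 32 sample. Their part in these differences was not tested.

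Within the arrays of high 18S signal, sorted cells can be set against iPSC with MEFs, which are not labelled as sorted. These groups still differed in signs of RNA quality, whose part was not tested. The 3' minus 5' gap of Actb was 0.05 to 0.21 in the fractions and 1.08 to 1.12 in iPSC with MEFs. The gap of Gapdh was 1.03 to 1.56 in the fractions and 2.53 to 3.18 in iPSC with MEFs. That of Tfrc did not follow them, at 0.29 to 1.25 in the fractions and 0.27 to 0.31 in iPSC with MEFs. In the Sox2-positive fraction 0 of 12 probe sets were called higher and 3 lower, beside 7.49% and 25.2% of all. These were Fosb (4.72 ± 0.01, against 6.79 ± 0.66 in iPSC with MEFs; 4.2-fold lower, limma adjusted p = 0.00958), Fos (8.72 ± 0.19, against 10.41 ± 0.94; 3.2-fold, 0.0451) and Ier2 (4.64 ± 0.15, against 5.64 ± 0.01; 1.99-fold, 0.0227; SD, n = 2 each). Egr1 differed by 1.03 (95% interval -0.58 to 2.64), Jun by -0.69 and -1.17 (-1.78 to 0.40 and -2.51 to 0.16) and Atf3 by -1.79 (-3.32 to -0.26, adjusted p = 0.0699), none of them called, though Atf3 was called without Sox2-positive replicate a (-2.52, 0.0494). In the Sox2-negative fraction Fos was again lower (7.97 ± 0.95, against 10.41 ± 0.94 in iPSC with MEFs; 5.41-fold, adjusted p = 0.00739), while Egr2 by 1427682_a_at (6.58 ± 0.41 against 4.47 ± 0.90; 4.3-fold, 0.0192) and Ier3 (6.06 ± 0.40 against 4.55 ± 0.08; 2.85-fold, 0.0152) were higher. These 2 called higher stand beside 13.3% of all probe sets and the 1 lower beside 31.3%. Egr1 (1.44, -0.16 to 3.05) and Jun (0.72 and 0.77) lay above iPSC with MEFs on every array without a call, though Egr1 was called higher with the compared arrays alone (0.0192). Keratinocyte markers summed to 5.25 in the Sox2-positive and 8.48 to 11.15 in the Sox2-negative fraction, against 4.94 to 5.25 in iPSC with MEFs. Krt6b in the Sox2-negative fraction was the only one over 4 on both arrays of a group (1 of 5, against 0 in the other groups). Their part was not tested.

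Both fractions were set against the same arrays of iPSC with MEFs, and each of these calls was lost without at least 1 array. Without iPSC with MEFs replicate a, 0 of the 3 Sox2-positive calls were left, with an adjusted p of 0.0825 for Fosb, 0.287 for Fos (difference -1.02) and 0.104 for Ier2. Without Sox2-positive replicate a or b Fos (0.105 and 0.134) and Ier2 (0.0531 and 0.0797) were lost, without iPSC with MEFs replicate b Ier2 (0.0916), with quantile normalization Fos (-0.85, 0.289) and with centring Fos (0.0902) and Ier2 (0.0801). In the Sox2-negative fraction Fos was lost without iPSC with MEFs replicate a (0.0666), Egr2 without Sox2-negative replicate a (0.0881) or iPSC with MEFs replicate b (0.145), and Ier3 without Sox2-negative replicate a (0.0775) or either array with MEFs (0.0805 and 0.0624).

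**Figure D3:**
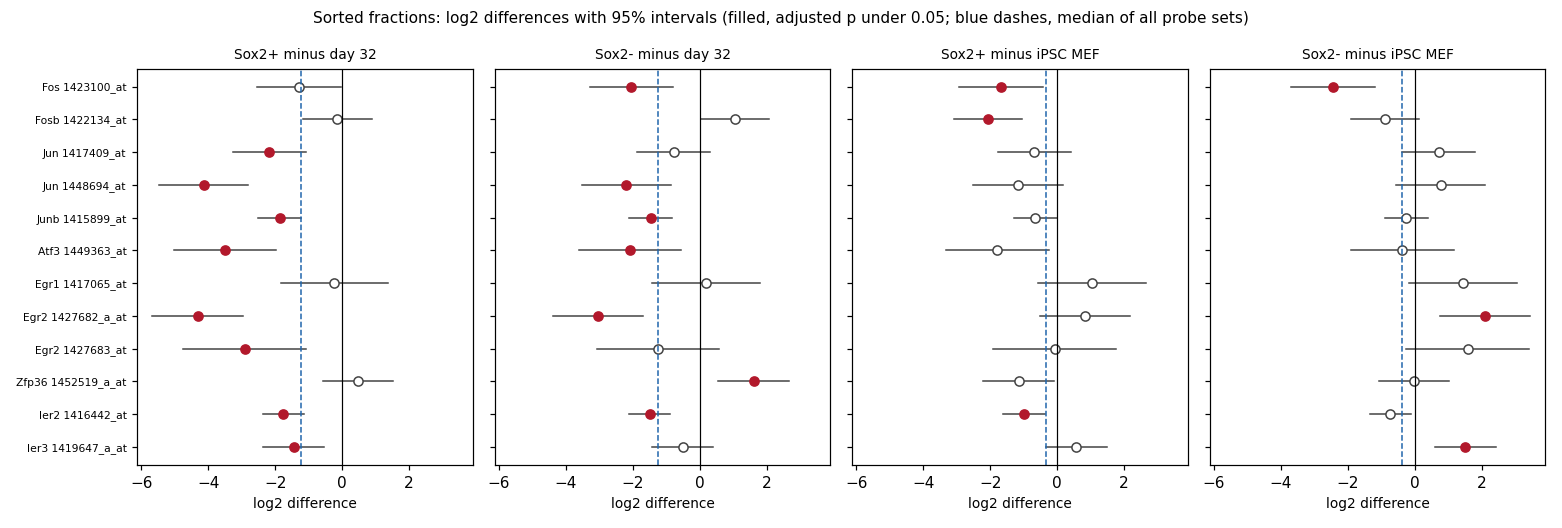
Log2 differences (x axis) of the 12 probe sets (rows) for each sorted fraction against the day 32 sample (left pair of panels) and against iPSC with MEFs (right pair), with 95% intervals from limma; filled points have an adjusted p under 0.05, and the blue dashed line is the median of all probe sets. The median of all probe sets lay at -1.23 and -1.25 against the day 32 sample, and against iPSC with MEFs Fos was called lower in both fractions.

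Between the fractions, which were both sorted, no member was called. Of the 12 probe sets 11 were lower in the Sox2-positive fraction in mean and 10 without overlap, where 24.8% of all probe sets were lower without overlap. The largest difference was that of Jun by 1448694_at, with 4.17 ± 0.62 in the Sox2-positive fraction and 6.12 ± 0.67 in Sox2-negative cells (-1.94, SE 0.59, limma adjusted p = 0.0665; SD, n = 2 each). Jun by 1417409_at differed by -1.41 (95% interval -2.50 to -0.32), Atf3 by -1.42 (-2.95 to 0.11), Fosb by -1.18 (-2.21 to -0.16) and Zfp36 by -1.13 (-2.19 to -0.08), and Fos ran the other way (0.75, -0.50 to 2.01). By limma 0 of 12 were called at an adjusted p under 0.05, where 6.13% of all probe sets were called higher and 4.98% lower, and 5 had an unadjusted p under 0.05. The count stayed at 0 under all 12 alternatives. The median was -1.16 over the 12 and -0.01 over all. Keratinocyte markers summed to 5.25 in the Sox2-positive and 8.48 to 11.15 in the Sox2-negative fraction, where Krt5, Krt14, Trp63 and Sfn were under 4 on both arrays of either. Fibroblast markers summed to 8.12 to 8.78 in the Sox2-positive and 8.99 to 9.65 in the Sox2-negative fraction. Their part in the differences was not tested.

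Replicates of a group often differed in the same direction for most members. In the day 32 sample, 10 of 12 probe sets were higher in replicate a, by a median of 1.13, where 44.4% of all tested probe sets were higher in a. The median size of the gap between the replicates was 1.13 for the 12 and 0.28 for all probe sets. In the Sox2-negative fraction and in iPSC with MEFs 10 of 12 were also higher in replicate a, and in the Sox2-positive fraction 9, against 47.7%, 51.8% and 48.5% of all. In iPSC in 2i the count was 6 of 12, but the gap was 0.76 for the members and 0.25 for all, and Egr1 differed by 2.76 between its replicates. The letters a and b are only names, and the 12 probe sets share their arrays, so this is a description of 10 arrays.

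**Figure D4:**
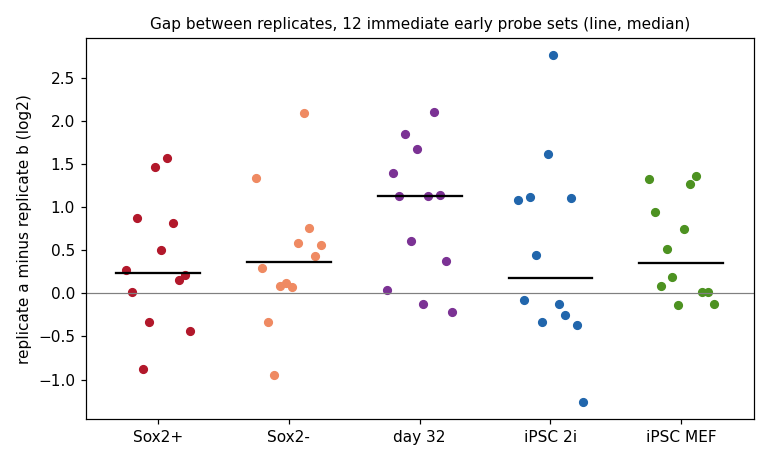
Replicate a minus replicate b (y axis, log2 units) for each of the 12 probe sets by group (x axis); black lines are the medians. The day 32 sample had a median gap of 1.13 and Egr1 in iPSC in 2i the widest single gap of 2.76.

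Other immediate early genes were counted from a list of 36, of which 35 were on the array and 29 passed the filter. Between the day 32 sample and iPSC in 2i, 6 were called higher and 0 lower (3.93% and 2.42% of all probe sets), with a list median of 0.84. Among them were the AP-1 gene Fosl1 (7.38 ± 0.42 in the day 32 sample and 3.48 ± 0.72 in iPSC in 2i, limma adjusted p = 0.00218), the matricellular gene Ccn1 (difference 2.76, 0.00315) and the small Maf gene Maff (2.85, 0.00398). Between iPSC in 2i and iPSC with MEFs, 4 were called higher and 5 lower (49.8% and 11.5% of all). The list median was 0.11, under the 0.91 of all probe sets. The first by p were the phosphatase gene Dusp1 (-1.92, limma adjusted p = 1.99e-04, and -3.02 with centring), Maff (-2.75, 2.47e-04) and Cebpb (-3.44, 3.72e-04), all lower in 2i. Between the fractions 3 were called higher and 5 lower in Sox2-positive cells (6.13% and 4.98% of all), such as Fosl1 (3.38 ± 0.33 in the Sox2-positive fraction and 8.14 ± 0.30 in Sox2-negative cells, SD, n = 2 each, limma adjusted p = 5.44e-04), Ccn1 (-2.68, 0.00202) and, in the other direction, Klf2, which is also a naive pluripotency factor (7.20 ± 0.11 in the Sox2-positive fraction and 2.83 ± 0.33 in Sox2-negative cells, at least 9.19-fold higher, 0.00135). Against the day 32 sample 0 were called higher and 19 lower in the Sox2-positive fraction and 1 and 18 in the Sox2-negative, beside 10.7% and 60.3%, and 10.6% and 61.1%, of all. Errfi1 was lower in both fractions (-5.21 and -5.67). Against iPSC with MEFs 2 were higher and 10 lower in Sox2-positive cells, and 6 and 9 in Sox2-negative cells, beside 7.49% and 25.2%, and 13.3% and 31.3%, of all, with Dusp1 lower in both (-2.35 and -3.27, the first -1.40 with quantile normalization).

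Feedback and output genes of ERK, 10 of 13 on the array, were called lower in 2i than with MEFs in 4 cases and higher in 0, beside 11.5% of all probe sets lower and 49.8% higher. These were the ETS factor gene Etv5, Spry4, Spred2 and the ERK phosphatase gene Dusp6. Etv5 averaged 5.59 ± 0.23 in iPSC in 2i and 10.28 ± 0.06 in iPSC with MEFs (limma adjusted p = 1.18e-05). It averaged 4.34 in the day 32 sample, 9.72 in the Sox2-positive fraction and 8.77 in the Sox2-negative fraction. Against the day 32 sample Etv5 was called higher in both fractions (5.38 and 4.42, limma adjusted p = 5.34e-06 and 8.52e-06). The Etv5 levels thus followed the divide in ribosomal RNA signal, whose part was not tested. In 2i against MEFs Spry4 differed by -2.75 (0.00444), and by -1.59 without iPSC in 2i replicate a. Spred2 differed by -0.91 (0.0132) and Dusp6 by -1.28 (0.028). With quantile normalization and with centring Spred2 became -1.48 and -2.01 and Dusp6 -1.93 and -2.38, and without iPSC in 2i replicate b Dusp6 was -1.94. Spred2 lost its call without iPSC in 2i replicate b (0.094) or iPSC with MEFs replicate a (0.0724), and Dusp6 without iPSC in 2i replicate a (-0.62, 0.23) or either array with MEFs (0.0953 and 0.103). Between the day 32 sample and iPSC in 2i (3.93% of all called higher, 2.42% lower) 1 was called higher, Phlda1 (3.08, 0.00805), and 1 lower, Etv5 (4.34 ± 0.06 in the day 32 sample and 5.59 ± 0.23 in iPSC in 2i, 0.0334). The call of Etv5 was lost on leaving out each of the 4 arrays in turn (0.0819 to 0.224), and that of Phlda1 without day 32 replicate a (0.0867) or iPSC in 2i replicate b (0.0598). The fractions, for which no inhibitor is named, also had lower calls against iPSC with MEFs, in part for other genes. In the Sox2-positive fraction 0 were called higher and 4 lower (7.49% and 25.2% of all). These were Spry1 (-1.29), Spry2 (-1.28), Ccnd1 (-2.67) and Dusp6 (-1.28), of which only Spry1 kept its call with quantile normalization. In the Sox2-negative fraction 1 was called higher and 6 lower (13.3% and 31.3%). Of those lower, Spry1 (-2.31) kept its call with quantile normalization, while Etv5 (-1.52, then -0.66) and Spry2 (-1.29, then -0.45) lost theirs.

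Heat shock and chaperone genes are also known to respond to dissociation. Of 10 that passed the filter, 0 were called higher and 8 lower in the Sox2-positive fraction than in iPSC with MEFs, and 0 and 7 in the Sox2-negative fraction, beside 25.2% and 31.3% of all probe sets called lower. The co-chaperone gene Dnajb1 averaged 9.30 ± 0.15 in the Sox2-positive fraction and 9.37 ± 0.25 in Sox2-negative cells, against 11.16 ± 0.09 in iPSC with MEFs (limma adjusted p = 0.0016 and 7.37e-04). Hsph1, a chaperone of the same system, differed by -2.18 and -2.19 from the same arrays, and with quantile normalization these became -1.26 and -1.24, and those of Dnajb1 -0.94 and -0.89, all still called. Against the day 32 sample 0 were called higher and 3 and 5 lower, beside 60.3% and 61.1% of all probe sets called lower. Between iPSC in 2i and iPSC with MEFs 1 was called higher and 4 lower (49.8% and 11.5% of all), and between the day 32 sample and iPSC in 2i 2 higher and 0 lower (3.93% and 2.42%). The inducible chaperone gene Hspa1a averaged 6.62 ± 0.42 in the day 32 sample and 3.28 ± 0.13 in iPSC in 2i (0.00123), and it read 6.35 ± 0.11 in iPSC with MEFs. Its sister gene Hspa1b averaged 11.77 ± 0.07 in the day 32 sample and 10.02 ± 0.21 in iPSC in 2i (0.0281, lost on leaving out each of the 4 arrays in turn, at 0.0718 to 0.197). In iPSC with MEFs Hspa1b read 8.75 ± 0.39, and it was called higher in 2i (1.27, 0.015). That call was lost without iPSC in 2i replicate b (0.0833) or iPSC with MEFs replicate a (0.107) and with quantile normalization (0.60) or centring (0.16).

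The genes whose pattern over the 10 arrays lay nearest to a member were found by the mean absolute difference between profiles, each centred on its own mean. For Fos the nearest was Hspa1a (0.70 log2 units), followed by Maff (0.84) and Ndrg1 (0.89), among 6386 candidate probe sets. For Egr1 they were Maff (0.58), Pam (0.67) and Hspa12b (0.69). Maff read 8.89 and 8.44 in the Sox2-positive fraction, 8.75 and 8.99 in the Sox2-negative fraction, 8.90 and 8.66 in the day 32 sample, 6.47 and 5.39 in iPSC in 2i and 8.68 and 8.69 in iPSC with MEFs, so that only the 2i arrays stood apart. For Atf3 the nearest were Patj (0.43), Plec (0.45) and Acsl5 (0.47), and for Ier3 Rad18 (0.26), Styx (0.27) and Tspan4 (0.27).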

How the data were processed

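The members and gene lists were chosen with earlier results of these data known. Log2 expression values were used as the authors deposited them. They had been made with GCRMA and the affy package, per the submitters' processing notes, with no version stated there, and lay between 0.58 and 14.51. RNA was extracted with Trizol and amplified with either of the NuGEN Ovation kits that the labels name, per the labels' protocols, which assign no kit to a sample. Whether all 10 arrays were normalized together is not stated. Of 22690 probe sets 64 were controls, 20380 had a single gene symbol, 691 several and 1555 none. RefSeq (GRCm38.p6) held the Entrez IDs of 20364, and 0 symbols changed. All probe sets but controls over 4 on at least 2 arrays were tested (15252) with limma 3.58.1 in R 4.3.3, with a mean per group over 10 arrays (residual degrees of freedom 5, prior 4.2) and Benjamini-Hochberg adjustment over 15252, and called at an adjusted p under 0.05. An exact two-sided permutation test of 2 arrays against 2 has a smallest p of 0.33, and precision is limited by the 10 arrays. All 12 member probe sets are named. Listed genes are named in order of p, by the probe set with the highest mean. On simulated arrays for the comparison of the fractions (15252 probe sets), limma recovered 7 of 67 changes of 1 log2 unit (10.4%), 55 of 67 of 2 (82.1%) and 66 of 66 of 4, with 6 false calls. The simulation had normal noise and no group difference besides these changes, which were far fewer than the 1695 probe sets called between the fractions. The adjusted p depends on that share, so these rates need not hold for the data. Figures used matplotlib 3.10.9. The replicate letters were not taken as pairs, since the labels tie them to no shared culture and each comparison has 2.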

Additional observations from a re-analysis of the deposited data

How the results depend on the processing

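For each comparison 12 alternatives were run, among them leaving out each of the 4 arrays compared. Over the 12 probe sets and all alternatives, 857 results kept direction and side of the threshold, 86 lost the call, 23 gained one and 28 reversed, and the cause was not tested. With one probe set per gene fewer are tested, and calls over all numbered 1076 of 1695 (Sox2-positive against Sox2-negative), 6263 of 10835 and 6404 of 10940 (Sox2-positive and Sox2-negative against day 32), 3088 of 4983 and 4087 of 6816 (the same against iPSC with MEFs) and 5253 of 9350 (iPSC in 2i against iPSC with MEFs). Array weights gave 496 between the fractions and 2114, where 968 were called, for day 32 against iPSC in 2i, and the compared arrays alone 308 and 314. Quantile normalization gave 2962 for Sox2-positive against iPSC with MEFs, 6179 for iPSC in 2i against iPSC with MEFs and 574 for day 32 against iPSC in 2i. Of the 12 members, quantile normalization called 5 (centring 4) of 8 and 3 (centring 3) of 7 for the fractions against day 32. For Sox2-positive against iPSC with MEFs, centring called 1, the compared arrays alone 5 and the replicate block 5, where 3 were called, and day 32 against iPSC in 2i had 3 with the compared arrays alone. The replicate block, fitted although the letters are not taken as pairs (correlations of same-letter deviations -0.04 to 0.31), added Fos (0.014) in Sox2-positive and Fosb (0.0351) in Sox2-negative against day 32, Zfp36 (0.0338) and Atf3 (0.024) in Sox2-positive and Egr2 1427683_at (0.0391) in Sox2-negative against iPSC with MEFs, and Atf3 (0.0388) in day 32 against iPSC in 2i, and lost Ier2 (0.0557) in 2i against MEFs. It changed no other member's call.

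Leaving out 1 array gave 705 to 1776 calls over all between the fractions, 9238 to 10109 and 9335 to 10321 for Sox2-positive and Sox2-negative against day 32, 1822 to 4465 and 4015 to 5912 against iPSC with MEFs, 7111 to 7456 for iPSC in 2i against iPSC with MEFs and 127 to 882 for day 32 against iPSC in 2i. Members called were 0, 7, 5 to 7, 0 to 2, 1 to 4, 3 to 7 and 2 to 7 in that order. Reversals for Sox2-positive against day 32 were Fosb 0.90, Egr1 0.61 and Hspb1 0.44 with quantile normalization, Fos 0.06, Fosb 1.21, Egr1 1.12, Atf4 0.26 and Hspb1 0.55 with centring. For Sox2-negative against day 32 they were Jun 1417409_at 0.63, Egr2 1427683_at 0.05 and Ier3 0.81 with quantile normalization. With centring they were Jun 1417409_at 0.56, Egr2 1427683_at 0.08, Ier3 0.81 and Hsp90aa1 0.53. Against iPSC with MEFs they were Egr2 1427683_at 0.16 and 0.19 in Sox2-positive, Zfp36 0.66 and 0.23 in Sox2-negative, and Junb -0.55 and -0.75 and Ier2 -0.42 and -0.40 in 2i (quantile, then centring). In this paragraph Egr2 is 1427683_at throughout, and the other probe sets of Jun and Egr2 did not reverse. Leaving out 1 array turned the sign within -0.83 to 0.56 (Fosb), -0.48 to 0.02 (Egr1) and -0.10 to 1.04 (Zfp36) for Sox2-positive against day 32, -0.76 to 0.59 (Egr2) and -0.40 to 0.36 (Zfp36) for Sox2-positive and Sox2-negative against iPSC with MEFs, -1.18 to 0.43 (Atf3) for iPSC in 2i against iPSC with MEFs and -0.13 to 0.25 (Ier2) for day 32 against iPSC in 2i. Scaling moved the share of calls that were higher to 45.8% (quantile) and 58% (centring) of calls, where it was 15.1%, for Sox2-positive against day 32, to 44.8% and 57%, where it was 14.8%, for Sox2-negative against day 32, to 47.5% and 41.1%, where it was 22.9%, and 47.2% and 42.9%, where it was 29.9%, for the same fractions against iPSC with MEFs, and to 51.8% and 36.2%, where it was 81.3%, for iPSC in 2i against iPSC with MEFs.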

Other observations

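Genes of the integrated stress response, the pathway in which ATF4 raises Atf3 and amino acid genes, were counted beside the immediate early genes, and the difference between the lists was not tested. All 10 of the list passed the filter. Between the day 32 sample and iPSC in 2i 0 were called higher and 0 lower by limma, where 3.93% and 2.42% of all probe sets were. The smallest p-values were those of Herpud1 (difference 1.36, adjusted p = 0.0816) and Asns (-0.67, 0.192). In the Sox2-negative fraction 0 were called higher and 8 lower than in the day 32 sample (list median -1.74, all probe sets -1.25 with 61.1% lower) and 0 and 5 than in iPSC with MEFs (-0.86, all -0.38 with 31.3% lower). In the Sox2-positive fraction 0 and 3 were called against the day 32 sample and 0 and 1 against iPSC with MEFs, beside 60.3% and 25.2% of all called lower. Between iPSC in 2i and iPSC with MEFs 2 were called higher and 1 lower (49.8% and 11.5% of all). Between the fractions 1 was called higher and 0 lower in Sox2-positive cells (6.13% and 4.98% of all), the glutathione-degrading enzyme gene Chac1, at 7.89 ± 0.71 in the Sox2-positive fraction and 4.78 ± 0.19 in Sox2-negative cells (SD, n = 2 each, limma adjusted p = 0.0222). That call was lost without Sox2-positive replicate b (0.109) or either Sox2-negative array (0.0741 and 0.0563), and with array weights (0.11).

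Of 15 genes listed for serum response factor and its cytoskeletal targets, 13 passed the filter. Between iPSC in 2i and iPSC with MEFs 4 were called higher and 1 lower, where 49.8% and 11.5% of all probe sets were. First by p was Elk1 (limma adjusted p = 1.49e-05), a partner of serum response factor that ERK phosphorylates. Elk1 averaged 7.93 ± 0.13 in iPSC in 2i and 3.87 ± 0.38 in iPSC with MEFs (SD, n = 2 each). It averaged 7.58 in the day 32 sample, 4.03 in the Sox2-positive fraction and 2.97 in the Sox2-negative fraction. The Elk1 levels thus followed the divide in ribosomal RNA signal, whose part was not tested. The gene of serum response factor itself, Srf, was the 1 called lower, at 7.10 ± 0.13 in iPSC in 2i and 9.64 ± 0.04 in iPSC with MEFs (2.27e-04). Elk3, of the same family as Elk1, averaged 9.06 ± 0.01 in the day 32 sample and 6.97 ± 0.37 in iPSC in 2i (0.00394). It was the 1 of the 13 called higher there, with 0 lower, where 3.93% and 2.42% of all probe sets were.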
